A study of Mus musculus with 8 samples.

Results

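The expression of Skap2 and 8 genes of the Hoxa cluster (Hoxa2, Hoxa3, Hoxa4, Hoxa5, Hoxa6, Hoxa7, Hoxa9 and Hoxa10) was followed in mouse neurospheres lacking HP1gamma and in wild-type neurospheres. These genes lie beyond Cbx3, the gene that encodes HP1gamma, on chromosome 6. All 9 genes were found through the RefSeq accession of their probes and were read by 10 of the 55681 probes of the array, 2 of them for Hoxa9. They are 9 of the 20660 genes that an accession matched. The members were chosen by their measured levels on these same arrays, from the difference between arrays with much and with little Cbx3 signal, so the levels and genotype differences below are a description and carry no test.

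Neurospheres are free-floating balls of dividing neural stem and progenitor cells. They were grown from the ganglionic eminence, a part of the ventral telencephalon, of E14.5 embryos, 1 brain for each sample, in medium with 20 ng/ml EGF and 20 ng/ml bFGF for 7 days per passage, and RNA was taken at the quaternary passage. The labels give 3 groups: HP1gamma KO (-/-) floating with 3 arrays, HP1gamma KO (-/-) adherent with 2 arrays, and wild type (+/+) floating with 3 arrays, called KO floating, KO adherent and WT floating here. The sources used here describe neither the making of the allele nor the adherent culture, and the culture protocol names low-attachment plates for all samples. All levels are log2 signal relative to the 75th percentile of the same array, so 0 is the signal that 25% of spots exceed. The 75th percentile itself ranged from 616 to 865 units of scanner signal, and 44.5% to 55.4% of spots were well above background.

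Hox genes encode homeodomain transcription factors that give cells their position along the body axis. Genes at one end of the cluster act in the hindbrain and pharynx and those at the other, Hoxa13 end in the limbs and the genital tract. The telencephalon normally keeps all Hox clusters silent, under the histone mark H3K27me3 of the Polycomb proteins. Skap2 is an adaptor protein that links Src family kinases to integrins and the actin skeleton, best known in leukocytes. HP1gamma binds methylated histone H3 and is mostly known for heterochromatin and for transcribed gene bodies.

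The stretches of DNA just before the starts of Skap2, Hoxa3 and Hoxa7 are shown because these members were well above background on all KO floating arrays and had levels on the 5 arrays with little Cbx3 signal that did not overlap those on the other 3. Each is the 250 bases upstream of the start in RefSeq on GRCm38.p6, 5′ to 3′ on the minus strand, with CpG dinucleotides in capitals. They lie at chr6:52012550-52012799 for Skap2, chr6:52213068-52213317 for Hoxa3 and chr6:52218574-52218823 for Hoxa7.
Skap2: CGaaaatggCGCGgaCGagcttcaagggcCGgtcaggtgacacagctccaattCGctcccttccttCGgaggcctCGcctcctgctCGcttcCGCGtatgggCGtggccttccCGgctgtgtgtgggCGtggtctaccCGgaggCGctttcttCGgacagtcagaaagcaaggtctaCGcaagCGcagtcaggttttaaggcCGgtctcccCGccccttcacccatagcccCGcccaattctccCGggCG
Hoxa3: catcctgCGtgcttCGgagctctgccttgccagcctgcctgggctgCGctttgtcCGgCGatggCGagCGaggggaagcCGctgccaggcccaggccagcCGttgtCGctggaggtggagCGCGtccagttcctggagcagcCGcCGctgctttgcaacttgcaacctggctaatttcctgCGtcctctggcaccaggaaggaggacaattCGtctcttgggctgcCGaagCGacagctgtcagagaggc
Hoxa7: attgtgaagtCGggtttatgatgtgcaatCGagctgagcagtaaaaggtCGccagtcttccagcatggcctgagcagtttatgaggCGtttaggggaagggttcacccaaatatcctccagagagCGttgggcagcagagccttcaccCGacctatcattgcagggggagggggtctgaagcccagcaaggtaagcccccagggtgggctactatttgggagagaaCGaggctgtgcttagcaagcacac

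These windows held 24 CpG dinucleotides before Skap2, 18 before Hoxa3 and 7 before Hoxa7, against a median of 6 over 32851 promoter windows of this length. Of all windows, 11.98% held at least as many as Skap2, 21.7% as many as Hoxa3 and 46.3% as many as Hoxa7. The 9 windows of the 8 members with an entry held between 3 (Hoxa9) and 28 (Hoxa5). Starts were 541.9 kb from that of Cbx3 for Skap2, 742.5 kb for Hoxa3 and 748 kb for Hoxa7. The start listed for Hoxa3 falls between those of Hoxa6 and Hoxa7. Searched on both strands, CCAAT was in 5 of the 9 member windows and in 33.9% of all windows, TATAAA in 1 and in 12.4%, and TGATNNAT, a site bound by PBX and HOX proteins together, in 1 (Hoxa2) and in 7.68%. Neither AGGTCA, a motif of nuclear receptors, nor CACGTG, an E box, was in a member window, against 14.0% and 6.02% of all windows. These are matches of letters only.

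The Cbx3 signal did not follow the labels of 2 arrays, which bears on every level below. Its brighter probe had -1.86, -2.76 and -1.75 on KO floating 1, 2 and 3, -2.03 and 5.91 on KO adherent 1 and 2, and 5.83, -2.17 and 5.95 on WT floating 1, 2 and 3. The library labelled KO adherent 2 thus had the level of WT floating 1 and 3, and the library labelled WT floating 2 that of the other KO arrays. Where these probes sit relative to the deletion was not determined. The labels were kept, and values are also given without both arrays.

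Skap2 was the single member well above background on all 8 arrays. It had 3.37, 4.25 and 2.36 on KO floating 1, 2 and 3, 3.89 and 0.98 on KO adherent 1 and 2, and 0.89, 3.79 and 0.61 on WT floating 1, 2 and 3. Its level was low on WT floating 1, WT floating 3 and KO adherent 2, the arrays with high Cbx3, and high on the other 5, and the gap between the lowest of those 5 and the highest of the 3 was 1.38. As labelled, the groups overlapped through WT floating 2 and KO adherent 2. Means were 3.33 ± 0.94 (SD, n = 3) in KO floating, 2.44 ± 2.05 (SD, n = 2) in KO adherent and 1.76 ± 1.76 (SD, n = 3) in WT floating. The lowest and highest arrays differed 12.5-fold.

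**Figure D1:**
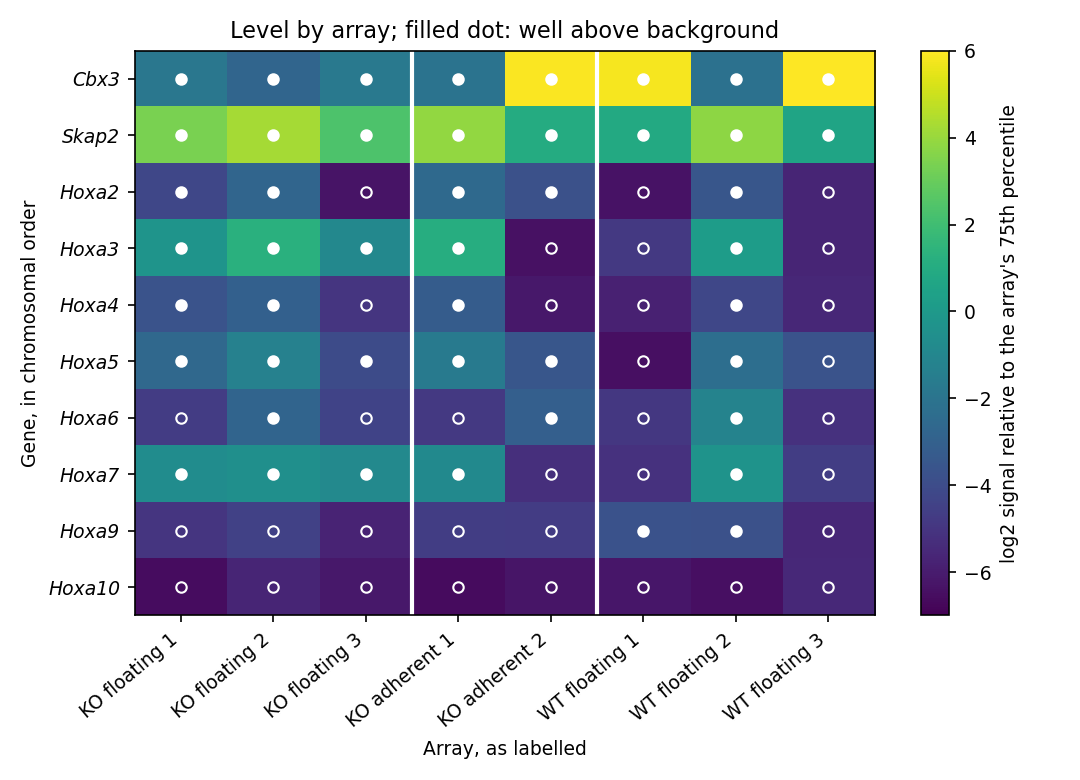
Heat map of log2 signal relative to each array's 75th percentile for Cbx3 and the 9 members (rows, in chromosomal order) on the 8 arrays (columns, as labelled), with filled dots where the probe was well above background. Hoxa3 and Hoxa7 are filled on the 5 arrays where Cbx3 is low and open on the 3 where it is high.

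Hoxa3, which patterns the pharyngeal arches from which thymus and parathyroid arise, was detected on 5 of 8 arrays. It had -0.26, 1.27 and -0.92 on KO floating 1, 2 and 3, 1.08 and -6.39 on KO adherent 1 and 2, and -4.85, 0.17 and -5.66 on WT floating 1, 2 and 3. It was well above background on KO floating 1, 2 and 3, KO adherent 1 and WT floating 2, and on no array with high Cbx3.

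Hoxa7, which acts in the axial skeleton and in blood progenitors, was detected on the same 5 arrays. It had -0.66, -0.55 and -0.88 on KO floating 1, 2 and 3, -0.83 and -5.26 on KO adherent 1 and 2, and -5.16, -0.30 and -4.65 on WT floating 1, 2 and 3. The 5 arrays well above background lay between -0.88 and -0.30, and the other 3 were in the background. In KO floating, where all 3 arrays detected it, Hoxa7 averaged -0.69 ± 0.17 (SD, n = 3).

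**Figure D2:**
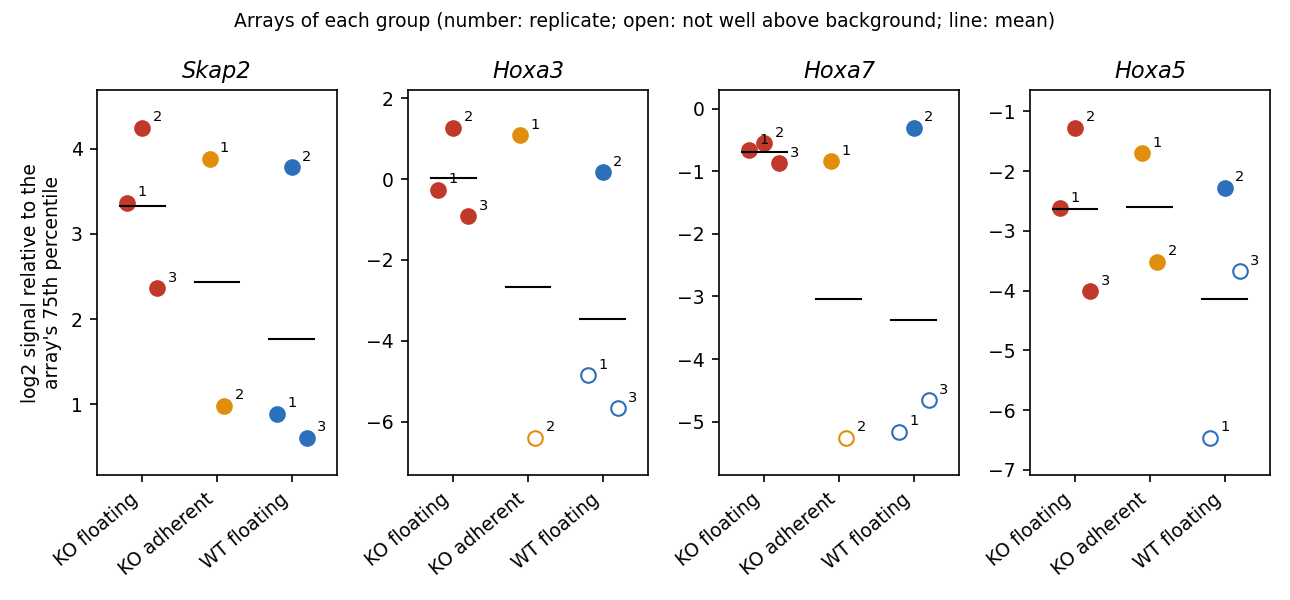
Levels of Skap2, Hoxa3, Hoxa7 and Hoxa5 (log2 signal relative to the array's 75th percentile, with a separate vertical axis per gene) for each array of KO floating, KO adherent and WT floating, numbered by replicate, with open points for arrays not well above background and a line at the group mean. In the first 3 panels, KO adherent 2 lies with WT floating 1 and 3, and WT floating 2 lies with the KO floating arrays.

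The other Hoxa members were dimmer and followed this pattern in part. Hoxa2, a hindbrain and branchial arch gene, had -4.21, -2.76 and -6.33 on KO floating 1, 2 and 3, -2.57 and -3.80 on KO adherent 1 and 2, and -6.34, -3.53 and -5.64 on WT floating 1, 2 and 3. It was in the background on KO floating 3 and above it on KO adherent 2, so its arrays did not sort by Cbx3. Hoxa4, a gene of the cervical vertebrae, had -3.66, -3.01 and -5.01 on KO floating 1, 2 and 3, -3.21 and -6.16 on KO adherent 1 and 2, and -5.80, -4.22 and -5.58 on WT floating 1, 2 and 3. It was above background on KO floating 1 and 2, KO adherent 1 and WT floating 2.

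Hoxa5, needed for lung and axial skeleton, was above background on all KO arrays of both cultures. It had -2.62, -1.28 and -4.01 on KO floating 1, 2 and 3, -1.70 and -3.52 on KO adherent 1 and 2, and -6.46, -2.28 and -3.67 on WT floating 1, 2 and 3. WT floating 2 was the single WT array above background, and the KO and WT floating groups overlapped. Hoxa6, a neighbour of Hoxa5 with a role in the axial skeleton, was above background on KO floating 2 (-2.82), KO adherent 2 (-3.06) and WT floating 2 (-1.18), and between -5.13 and -4.38 on the other arrays.

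Hoxa9, known for blood stem cells and leukaemia, had a probe above background on WT floating 1 (-3.75) and WT floating 2 (-3.78) and on no KO array, where it lay between -5.73 and -4.47. Its other probe was in the background on all 8 arrays, so the 2 probes differ in detection on WT floating 1 and 2. Hoxa10, a gene of uterus and limb, was in the background on all 8 arrays, between -6.61 and -5.53. Of the 9 members, 8 were thus above background on at least 1 array.

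The 5 arrays with low Cbx3 differed among themselves. KO floating 3 was the lowest of them in Skap2, Hoxa3, Hoxa5 and Hoxa7, and the single one of them in the background for Hoxa2 and Hoxa4. It had 4 members above background, against 6 on KO floating 1, 7 on KO floating 2, 6 on KO adherent 1 and 8 on WT floating 2. The library labelled KO adherent 2, with high Cbx3, also had 4 and lay below KO floating 3 in Skap2. The share of all spots above background on KO floating 3, 50.6%, lay inside the range of the other arrays.

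At the far end of the cluster the signal ended. Hoxa11 and Evx1 were in the background on all arrays. Each of the 2 Hoxa13 probes was above background on a single array, KO adherent 2 (-3.98) for one and WT floating 3 (-2.17) for the other. Hoxa11os, a noncoding transcript antisense to Hoxa11, lay between -4.24 and -3.36, above background on 4 arrays. No probe matched Hotairm1, Hoxaas2, Hoxaas3, Mira or Hottip.

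The flanking genes detected on all arrays varied less than Skap2. The brighter probe of Snx10, a sorting nexin that lies between Cbx3 and Skap2, had 0.60, 0.66 and 0.67 on KO floating 1, 2 and 3, 0.60 and 0.86 on KO adherent 1 and 2, and 0.87, 0.66 and 0.79 on WT floating 1, 2 and 3. These levels were slightly higher on the arrays with high Cbx3, while those of its other probe overlapped. The brighter probe of Hnrnpa2b1, an RNA-binding protein gene next to Cbx3 on the other side, lay between 4.12 and 4.69, and Hibadh, a valine catabolism gene beyond Evx1, between 3.89 and 4.39. Tax1bp1 lay between 2.69 and 3.19 and Creb5 between 6.47 and 6.90. Nfe2l3 was in the background on all arrays, and Jazf1 was above it on KO floating 3 alone (-2.79).

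**Figure D3:**
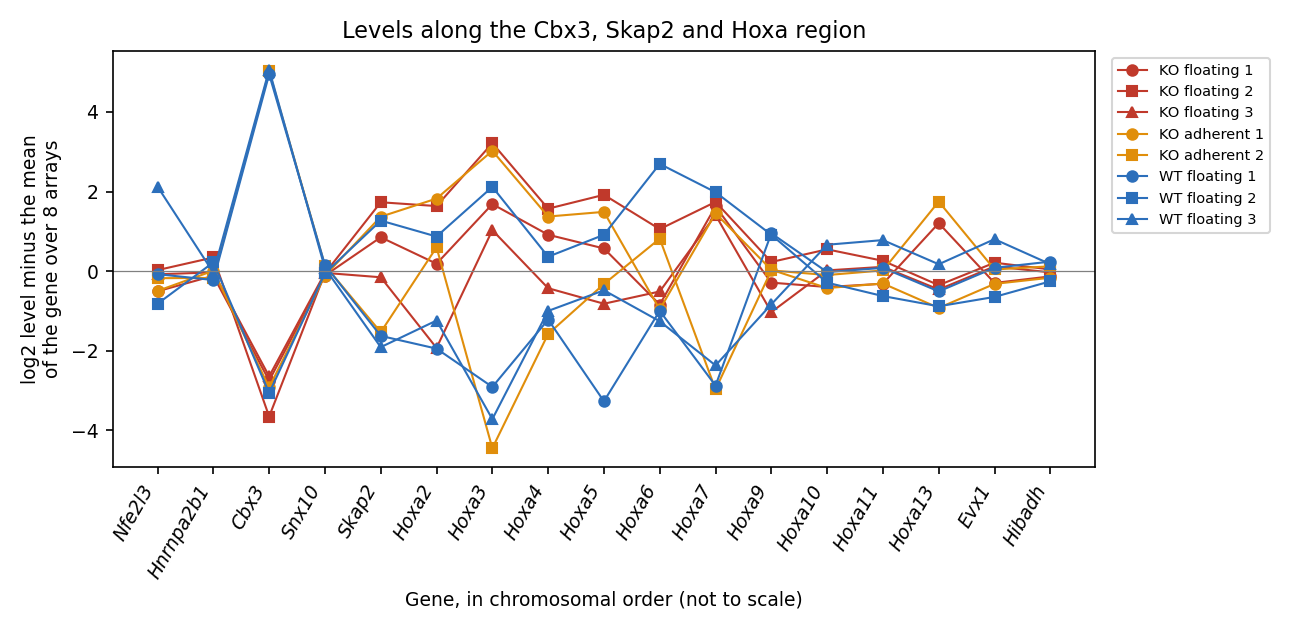
Log2 level of each gene minus its mean over the 8 arrays (vertical axis) for genes in chromosomal order from Nfe2l3 to Hibadh (horizontal axis, not to scale), with 1 line per array coloured by labelled group. The lines split at Cbx3 and meet at Snx10, and at Skap2, Hoxa3 and Hoxa7 the 3 arrays with high Cbx3 (WT floating 1 and 3, KO adherent 2) lie below the other 5.

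At most 1 gene of the other Hox clusters was detected on any array. Of 28 genes of the Hoxb, Hoxc and Hoxd clusters, 25 were in the background on all 8 arrays. The exceptions were each above background on 1 array: Hoxb3 on WT floating 1, Hoxb6 on WT floating 3 and Hoxc10 on KO floating 3. Of 10 Hoxa genes (the 8 Hoxa members, Hoxa11 and Hoxa13), 5, 6 and 3 were above background on KO floating 1, 2 and 3, 5 and 4 on KO adherent 1 and 2, and 1, 7 and 1 on WT floating 1, 2 and 3. The 4 on KO adherent 2 were Hoxa2, Hoxa5, Hoxa6 and Hoxa13.

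**Figure D4:**
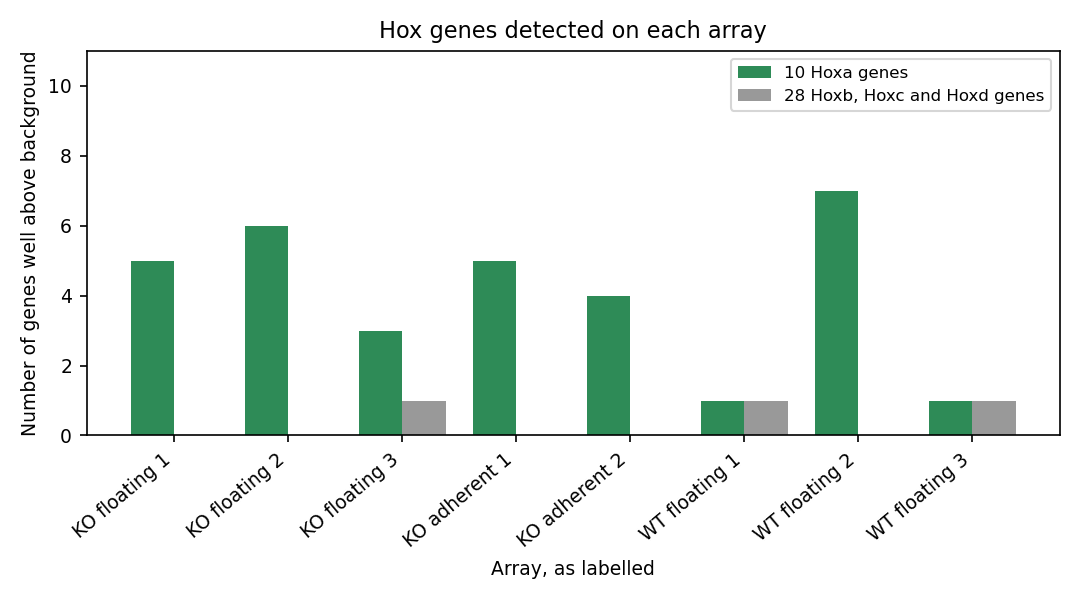
Number of genes well above background (bars, vertical axis) on each array for 10 Hoxa genes and for the 28 genes of the Hoxb, Hoxc and Hoxd clusters. The Hoxa count is 3 to 7 on the KO arrays and WT floating 2 and 1 on WT floating 1 and 3, while the count of the other clusters is 0 or 1 throughout.

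For KO against WT in floating culture, limma was fitted to all 8 arrays and 22647 features. A feature was kept where some group had it above background on each of its arrays. Skap2 was kept through all 3 groups, Hoxa3 and Hoxa7 through KO floating, Hoxa5 through both KO groups and Hoxa2 through KO adherent. For the Hoxa genes this filter fixes in part which group is higher. Past an adjusted p of 0.05 were 0 of the 5 members and 0.00442% of all features. At an unadjusted p under 0.05 were 0 of the 5 members and 391 of the 22647 features. The log2 differences, KO minus WT, were 1.56 (SE 1.07) for Skap2, 0.74 (SE 1.03) for Hoxa2, 3.48 (SE 2.15) for Hoxa3, 1.50 (SE 1.16) for Hoxa5 and 2.68 (SE 1.49) for Hoxa7. Their median was 1.56, and that of all features -0.03. For the Hoxa genes these differences include background signals of WT floating 1 and 3, so their size is not exact. With 1 array left out, the differences ranged from 0.99 (without WT floating 3) to 2.58 (without WT floating 2) for Skap2 and from 0.34 (without WT floating 1) to 2.43 (without WT floating 2) for Hoxa5. They ranged from 2.37 (without WT floating 3) to 5.29 (without WT floating 2) for Hoxa3 and from 1.79 (without WT floating 1) to 4.21 (without WT floating 2) for Hoxa7. Of the 4 members outside the fit, Hoxa4 was detected on 2 of 3 KO and 1 of 3 WT floating arrays, Hoxa6 on 1 of 3 and 1 of 3, Hoxa9 on 0 of 3 and 2 of 3, and Hoxa10 on none.

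Without the library labelled WT floating 2 and the library labelled KO adherent 2, the 4 remaining KO arrays of both cultures were set beside WT floating 1 and 3. This setting is close to the contrast from which the members were drawn, and culture and genotype cannot be told apart for KO adherent 1. Both arrays were left out because their levels opposed their labels, which can narrow the spread within groups. The limma p-values without both arrays, here and below, are thus a description only. Mean Skap2 was 3.47 ± 0.82 on the KO arrays (SD, n = 4) and 0.75 ± 0.20 on the WT arrays (SD, n = 2), 6.57-fold higher in KO. Where both WT arrays were in the background, the fold is a bound, with each WT array set to the array's lowest detected signal, or to the gene's signal where that was higher. It was at least 17.1-fold for Hoxa3, 8.44-fold for Hoxa7 and 2.64-fold for Hoxa5. Hoxa5 had overlapping arrays, since KO floating 3 (-4.01) lay under WT floating 3 (-3.67). Hoxa2 and Hoxa4 were each above background on 3 of 4 KO arrays and on 0 of 2 WT arrays. Hoxa6 was so on 1 of 4 KO arrays and 0 of 2 WT arrays, Hoxa9 on 0 of 4 KO arrays and 1 of 2 WT arrays, and Hoxa10 on none, and no fold is given for these 5. Of the 4 members in this fit, 3 were past the limma threshold, Skap2, Hoxa3 and Hoxa7, beside 17.3% of all features and 8.99% with KO higher. With KO floating alone against WT floating 1 and 3, 1 of 6 members was past it, Hoxa7 (4.21 higher in KO), beside 0.177% of all features. Nothing is read from these counts, since the members were drawn from this contrast. In bulk RNA, more cells that express a gene and more RNA per cell cannot be told apart.

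KO adherent was compared with KO floating within the same fit of all 8 arrays. None of the 5 members was past the limma threshold (lowest adjusted p = 0.99) or at an unadjusted p under 0.05, and 0% of all features passed (253 at an unadjusted p under 0.05). Differences, adherent minus floating, were -0.89 (SE 1.19) for Skap2, 1.25 (SE 1.16) for Hoxa2, -2.69 (SE 2.41) for Hoxa3, 0.03 (SE 1.30) for Hoxa5 and -2.35 (SE 1.67) for Hoxa7. For Skap2 and Hoxa3 the direction rests on the library labelled KO adherent 2, and the size for Hoxa7 does so too, with -0.14 without KO adherent 2 and -4.56 without KO adherent 1. Without both arrays that oppose their label, where the lone adherent array is given the spread of the other groups, the differences were 0.56 for Skap2 and 1.05 for Hoxa3.

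The comparison of KO adherent with WT floating differs in genotype and culture at once and shares its arrays with both comparisons above. The differences, adherent minus WT, were 0.67 (SE 1.19) for Skap2, 1.98 (SE 1.16) for Hoxa2, 0.79 (SE 2.41) for Hoxa3, 1.53 (SE 1.30) for Hoxa5 and 0.33 (SE 1.67) for Hoxa7. None of these 5 was past the limma threshold or at an unadjusted p under 0.05, beside 0.00442% of all features (406 of 22647 unadjusted). Without both opposing arrays it called 0 of 6 members and 0.0154% of all features.

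Cofactors that bind DNA with Hox proteins were expressed on all arrays. Of 9 genes of the PBX, MEIS and PKNOX families, 8 were above background on all 8 arrays, and 0 passed limma in any comparison as labelled, with 0 at an unadjusted p under 0.05. Meis1, a partner of the Hoxa9 protein, had 3.80, 4.40 and 3.61 on KO floating 1, 2 and 3, 4.15 and 3.73 on KO adherent 1 and 2, and 2.49, 4.11 and 3.23 on WT floating 1, 2 and 3. It was lowest on WT floating 1 and 3, and KO adherent 2 lay within the KO arrays, unlike in Hoxa3. In the comparison without both opposing arrays, with KO cultures joined, Meis1 was 1.13 higher in KO (SE 0.30, limma adjusted p = 0.0493). It was the single one of 9 cofactors past the threshold, in a fit where 17.3% of all features were, so the count is no result about the cofactors.

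Among 13 relatives and partners of the SKAP2 protein, 10 were above background on some array, while Fyb, the leukocyte adaptor that binds SKAP2, and the myeloid kinase Fgr were among those that were not. None of the 7 tested as labelled passed limma in any comparison. At an unadjusted p under 0.05 were Lyn and Rap1a in KO against WT floating, beside 391 of all 22647 features. In KO adherent against WT floating it was Lyn, beside 406 of 22647 features. With both opposing arrays left out and KO cultures joined, 3 of 8 passed, beside 17.3% of all features in both directions. All 3 that passed were lower in KO, and of the 8 tested, 3 others were higher in KO without passing. Of the 3722 features past the threshold in that fit, 1929 were higher in KO. Apbb1ip, an adaptor between RAP1 and integrins, was above background on WT floating 1 (-2.52) and WT floating 3 (-2.57) and in the background, between -6.65 and -4.56, on all other arrays. It entered that fit through the WT arrays alone, where it is high, so its direction was fixed by the filter. Rap1a, the small GTPase it binds, differed by -0.95 (SE 0.19, limma adjusted p = 0.0273) and Lyn, a Src family kinase, by -0.87 (SE 0.21, limma adjusted p = 0.0417).

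The labelled tissue and other possible cell types were checked through marker genes. All 9 neural stem cell markers were above background on all arrays, and their summed level, in multiples of the 75th percentile, was 805, 979 and 664 on KO floating 1, 2 and 3, 941 and 522 on KO adherent 1 and 2, and 513, 844 and 507 on WT floating 1, 2 and 3. It was thus higher on the 5 arrays with low Cbx3, as in Skap2, Hoxa3 and Hoxa7. As labelled, 0 of the 9 passed limma. In the comparison without both opposing arrays and with KO cultures joined, 5 of 9 passed, beside 17.3% of all features. Hes5, a Notch target (3.22, adjusted p = 0.00762), the glial glutamate transporter Slc1a3 (1.002) and Pax6 (0.53) were higher in KO, and the intermediate filament genes Vim (-0.68) and Nes (-0.80) were lower. Of 10 ganglionic eminence markers, Dlx5, Gsx2 and Nkx2-1 were in the background on all arrays and 4 were above it on all. Their summed level ranged from 38.3 to 43.7 in KO floating, 41.3 to 43.2 in KO adherent and 31.6 to 53.6 in WT floating. Of 10 hindbrain and spinal cord markers, 5 were in the background throughout, among them Hoxb1, Lbx1, En1 and Olig3. The summed level of these 10, relative to the 75th percentile, ranged from 5.21 to 64.6 in KO floating, 57.1 to 66.8 in KO adherent and 7.71 to 39.9 in WT floating, most of it from Egr2, which is also an immediate early gene.

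Among 8 microglia and macrophage markers with a probe, Ptprc, Aif1, Cx3cr1, Tyrobp, Spi1 and C1qa were in the background on all arrays, and Csf1r and Itgam were above it. The summed level of the 8 ranged from 16.0 to 22.6 in KO floating, 13.4 to 27.2 in KO adherent and 14.1 to 14.9 in WT floating. Of the mesenchyme and meninges markers 7 of 9, and of the endothelial markers 3 of 5, were above background on some array, while Lum, Foxd1, Cdh5 and Cldn5 were in the background on all. The summed level of the mesenchymal list ranged from 4.28 to 5.39 in KO floating, 4.35 to 5.29 in KO adherent and 5.10 to 6.75 in WT floating. The part of any of these lists in the levels of Skap2 and the Hoxa genes was not tested.

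Across the 8 arrays, the genes most like each member in pattern were taken from 1363 named genes above background on at least 2 arrays and with an SD of at least 1, by Pearson's r over measured values, background included, as a description over arrays that share these 2 levels of Cbx3. Most like Skap2 were Sncaip, which encodes synphilin-1 (r = 0.997), Cfap97d2 (r = 0.996) and Slc30a10, a metal transporter (r = 0.994). Most like Hoxa3 were Zfp981 (r = 0.992), Tmem132b (r = 0.989) and Slc1a2, the glial glutamate transporter (r = 0.987). Most like Hoxa7 were the protocadherin Pcdhac2 (r = 0.994), the zinc finger gene Zfp345 (r = 0.994) and the cytochrome Cyp2b13 (r = 0.993). Cyp2b13 had 0.35, 1.38 and 0.89 on KO floating 1, 2 and 3, 0.79 and -6.46 on KO adherent 1 and 2, and -6.37, 0.56 and -5.69 on WT floating 1, 2 and 3, high on the same 5 arrays as Hoxa7.

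For the dimmer members, with more arrays in the background, the closest genes were others. Hoxa4 was most like Mast1 (r = 0.977), the proneural gene Neurog2 (r = 0.974) and Nanos2 (r = 0.968), and Hoxa5 most like Eps8l1 (r = 0.962), the guidance molecule Slit2 (r = 0.926) and the glutamate receptor Grm3 (r = 0.923). Hoxa2 was most like the potassium channel Kcnd2 (r = 0.913), Ggt5 (r = 0.887) and its neighbour Hoxa5 (r = 0.866). Hoxa6 was most like Kcnq1 (r = 0.935), Olfr69 (r = 0.867) and Pmf1 (r = 0.851), and Hoxa9 like Ttll8 (r = 0.814), Saysd1 (r = 0.812) and Plekhg4 (r = 0.798). Between members, r was 0.970 for Skap2 with Hoxa3, 0.966 for Hoxa3 with Hoxa7 and 0.933 for Skap2 with Hoxa7, against 0.267 for Hoxa3 with Hoxa6. Many other genes were closer: by r, Hoxa3 had rank 73 and Hoxa7 rank 163 for Skap2, and Hoxa7 had rank 32 for Hoxa3.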

How the data were processed

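Total RNA of 8 neurosphere samples was hybridised to single-colour Agilent arrays of 1 slide. The deposited files hold scanner intensity, processed by Agilent Feature Extraction 11.0.1.1 per the file headers (9.1.3.1 per the submitters' processing notes) and not scaled between arrays. Flags of 0 or 1 for outliers and for signal well above background stand beside it. The authors' value table equals the processed signal within 0.01% for at least 99.8% of probes per array.

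Log2 of the processed signal minus the array's 75th percentile was taken, outlier spots were left out, repeated spots averaged, and each gene was represented by its brightest probe on average. By unversioned accession, 27235 of 55681 probes matched a gene of RefSeq (GRCm38.p6). The files name build mm9, so gene order and symbols alone were used from it, and promoter coordinates are those of the sequence table. limma 3.58.1 in R 4.3.3 was fitted to all 8 arrays with 3 groups (two-sided, Benjamini-Hochberg), and tested on simulated data. Per the labels' protocols each sample came from 1 embryonic brain, and p-values measure the spread between these samples. The number of arrays limits the precision.

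The members, gene lists and the array pair left out were chosen with earlier results of these data known. Named genes were the members, Cbx3, up to 4 genes of a list that passed or otherwise up to 2 of its brightest, and the 3 genes most alike in pattern, without clone or predicted names. Other list genes named in the text, among them Egr2, Snx10 and Jazf1, were chosen after their values were seen, and some list genes are not reported here. Deviations from group means correlated across genes between KO and WT floating arrays of the same number (r = 0.103, 0.590 and 0.335). Each was over 0.1, and a replicate block was run as an alternative to the main fit, which held no pairing. Values for arrays of unlike number are not given, so these correlations cannot show whether the numbers pair floating arrays. Pairs with an adherent array gave -0.630 to -0.0544, though the replicate block joined these arrays too. Alternatives were other normalizations, background correction, filters, probes, fits and blocks.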

Additional observations from a re-analysis of the deposited data

How the results depend on the processing

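The count of members past the limma threshold was 0 in each of the 3 comparisons as labelled. It stayed 0 with quantile normalization, normexp, the authors' value table and no filter. It was also 0 with a filter on all 8 arrays, every probe, only the groups compared, the replicate block and a block for slide row. With 1 array left out it was 0 to 0. For KO against WT floating it was 1 (Hoxa7) without both arrays that oppose their label and 3 when the KO cultures were also joined. The replicate block went by number over all 8 arrays, so adherent arrays shared blocks with floating arrays. That block is thus no check of a pairing of floating arrays alone.

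Differences not past the threshold turned as follows, and the cause was not tested. For KO adherent against KO floating, Skap2 was 0.56 without both opposing arrays and 0.17 with a block for slide row, Hoxa3 was 1.05 without both opposing arrays, and Hoxa5 was -0.15 with normexp and -0.20 with the replicate block. For KO adherent against WT floating with the replicate block, Hoxa3 was -0.000104 and Hoxa7 -0.038. With 1 array left out, the ranges that crossed 0 were -0.099 to 1.68 for Hoxa2 in KO against WT floating; -2.34 to 0.56 for Skap2, -6.42 to 1.05 for Hoxa3 and -0.88 to 0.93 for Hoxa5 in KO adherent against KO floating; and -0.78 to 2.12 for Skap2, -2.95 to 4.53 for Hoxa3 and -1.88 to 2.54 for Hoxa7 in KO adherent against WT floating. Ranges that kept their sign but moved by over 1.5 times were 0.30 to 2.08 for Hoxa2 and -4.56 to -0.14 for Hoxa7 in KO adherent against KO floating, and 0.37 to 2.46 for Hoxa5 in KO adherent against WT floating. Quantile normalization moved the group means of Skap2, Hoxa3 and Hoxa7 by less than 1 SD in all 9 cases. Levels near background have no order: the lowest signal well above background lay between -4.85 and -3.47.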

Other observations

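Probes for noncoding transcripts that the array design labels by position, on build mm9, cover chr6:52046805-52072744 on both strands. No gene coordinates of that build were used, so their place relative to the Hoxa genes is not given. Of 6 probes on the plus strand, 1 was above background on all 8 arrays, at 1.66 to 2.12, so it did not follow Skap2 or Hoxa3. Another plus-strand probe had -2.26, -3.47 and -3.03 on KO floating 1, 2 and 3, -3.13 and -2.87 on KO adherent 1 and 2, and -4.19, -0.94 and -3.18 on WT floating 1, 2 and 3, and was highest on WT floating 2. On the minus strand, 1 of 9 probes had -1.12 on KO floating 2 and -1.69 on WT floating 2 and was in the background on the other 6 arrays. These probes were chosen after their values were seen.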
